A study of Mus musculus with 12 samples.

Results

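Plasma cells and B cells leave their antibody RNA in any tissue they reside in, and in slices of mouse kidney cortex that RNA could be followed gene by gene. The 84 genes described here are the immunoglobulin gene segments of the heavy, kappa and lambda loci, taken by their symbols, together with Jchain, Mzb1 and Tnfrsf17, each with at least 10 reads summed over all libraries. They are 84 of the 27412 genes in the deposited table. They comprise 6 heavy constant genes, 4 heavy joining segments, 16 heavy variable segments, 1 kappa constant gene, 4 kappa joining segments, 46 kappa variable segments, 1 lambda constant gene, 3 lambda variable segments and the 3 plasma cell genes. Another 16 segments matched by name but had 1 to 9 reads, Igkj1 and Igkv18-36 standing just under the threshold with 9 reads each, and the lowest members, among them Igkv7-33, had 10. Igha, Ighd, Iglc1, Iglc3 and Iglc4 are not analysed here.

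The study sequenced RNA of thin outer slices of kidney cortex from 6 untreated male C57BL/6 mice, both kidneys of each animal giving 1 library each. The HIF2aM3 group was 3 mice (17-51, 17-53 and 17-56) of the genotype gamma-HIF2alphaM3 TG+, and the WT group was 3 wild-type mice (WT 1, WT 2 and WT 3). HIF2αM3 is a mutated, constitutively active form of the hypoxia-inducible transcription factor HIF-2α, here driven by the GGT promoter, known for its activity in proximal tubule cells. The HIF2aM3 animals share the prefix 17, and the labels do not say whether they are 1 transgenic line or what their ages were.

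An antibody is made of 2 heavy and 2 light chains. In each B cell 1 variable and 1 joining segment (with a diversity segment in heavy chains) are joined and spliced to a constant gene. Cells of 1 clone thus share a variable segment, and the heavy constant gene sets the antibody class. Different clones can use the same variable segment, so reads per segment do not identify clones. Plasma cells, the end stage of the B lineage, devote much of their RNA to 1 heavy and 1 light chain, and in normal kidney they are scarce. The B cell regulators, survival factors and antibody receptors described further on act before, around and after that secretion.

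The segments that the results turn on can be read at the place where variable and joining segments meet. The first 4 sequences are the heavy joining segments, shown whole because all 4 were tested, and the capitals mark TGGGGN, the start of the tryptophan-glycine motif.
Ighj1: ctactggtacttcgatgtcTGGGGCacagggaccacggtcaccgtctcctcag
Ighj2: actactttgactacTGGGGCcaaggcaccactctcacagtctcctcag
Ighj3: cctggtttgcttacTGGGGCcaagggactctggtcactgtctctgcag
Ighj4: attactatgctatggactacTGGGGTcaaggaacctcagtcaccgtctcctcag
The next 3 are the ends of the variable segments that passed the test between genotypes, and the 5 after them are the ends of segments that led in single animals and of the most negative member, Igkv12-98. Each starts 18 bases before the motif TANTNNTGN, shown in capitals, which encodes the conserved tyrosine and cysteine at the border of the antigen-binding loop.
Igkv16-104: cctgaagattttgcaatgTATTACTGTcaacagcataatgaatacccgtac
Iglv1: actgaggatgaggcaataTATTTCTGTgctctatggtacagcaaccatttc
Ighv4-1: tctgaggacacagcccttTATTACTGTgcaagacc
Igkv5-48: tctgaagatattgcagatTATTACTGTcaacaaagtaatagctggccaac
Igkv4-91: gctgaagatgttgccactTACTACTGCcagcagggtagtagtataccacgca
Igkv15-103: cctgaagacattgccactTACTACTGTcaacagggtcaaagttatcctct
Igkv12-98: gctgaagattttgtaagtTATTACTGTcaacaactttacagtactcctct
Ighv3-6: actgaggacacagccacaTATTACTGTgca
All are coding-strand sequences of GENCODE M21 transcripts, on chromosome 12 for the heavy locus, 6 for kappa and 16 for lambda. The motif, searched on the coding strand in the last 60 bases, was present in 287 of 301 variable segment transcripts (95.3%) and in 6.6% of the 58781 protein-coding transcripts. Segments of 1 family can share reads. Of all 50-base stretches of Iglv1, 22.2% were also in Iglv2, 29.9% of those of Ighv4-1 were in Ighv4-2, 22.4% of those of Igkv4-80 were in other genes, and none of those of Igkc, Ighm, Igkv16-104, Igkv5-48 or Igkv15-103 were. The Igkv4 family, of 18 segments, summed to 38.7, 21.5 and 13.7 CPM in 17-51, 17-53 and 17-56, against 2.18, 14.6 and 2.85 CPM in WT 1, WT 2 and WT 3, WT 2 lying above 17-56.

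Libraries held 24032148 to 43499743 counted reads, except kidney 2 of 17-51 with 4161829. The proximal tubule markers of kidney cortex were abundant in every animal: the 7 genes summed to 27721 to 31572 CPM (reads relative to library size, adjusted by TMM) in HIF2aM3 animals and 25714 to 32346 CPM in WT animals. Reads of mouse Epas1, the gene of HIF-2α, were at 248 to 278 CPM in HIF2aM3 animals and 177 to 238 CPM in WT animals, a log2 fold change of 0.39 ± 0.11 that did not pass the test (edgeR, adjusted p = 0.0881). The labels do not give the species of the transgene, so how many of its reads fall on mouse Epas1 was not tested. Each fold change below is HIF2aM3 over WT from edgeR's quasi-likelihood test on both kidneys summed per animal, 3 animals against 3, with p-values adjusted by Benjamini-Hochberg over all 19564 genes tested.

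Antibody RNA was higher on average in HIF2aM3 cortex than in WT cortex, and WT 2 lay close below the lowest HIF2aM3 animal. The 84 members together summed to 1104, 572 and 716 CPM in HIF2aM3 animals 17-51, 17-53 and 17-56, against 150, 460 and 105 CPM in WT 1, WT 2 and WT 3. The mean was 797 ± 275 CPM in HIF2aM3 animals and 238 ± 193 CPM in WT animals (SD, n = 3 each), a ratio of 3.35. The groups did not overlap, but the lowest HIF2aM3 animal stood 1.24 times above WT 2, while WT 2 stood 4.38 times above WT 3. In bulk RNA, fewer cells of a type and less RNA per cell cannot be told apart, and this holds for every level given here.

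**Figure D1:**
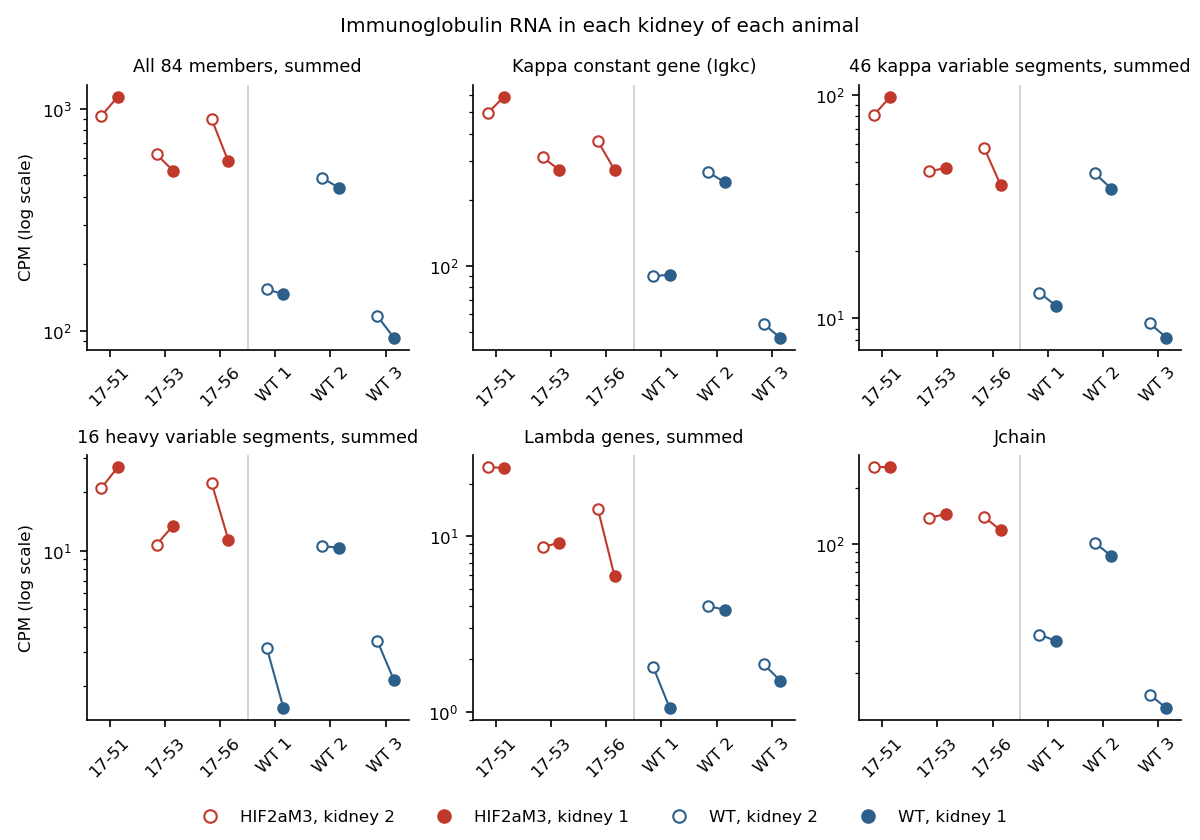
Summed CPM (log axis) of 6 classes of genes in each library; open points are kidney 2 and filled points kidney 1 of an animal, joined by a line, with HIF2aM3 animals in red on the left and WT animals in blue on the right. WT 2 sits near the HIF2aM3 animals and far above WT 1 and WT 3 in the sum of all members, at 460 CPM against 150 and 105 CPM.

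In the larger classes the groups did not overlap and WT 2 was the highest WT animal. Kappa variable segments summed to 95.9, 46.2 and 47.3 CPM in 17-51, 17-53 and 17-56, against 12.2, 40.8 and 8.85 CPM in WT 1, WT 2 and WT 3. Heavy variable segments summed to 26.3, 12.1 and 16.2 CPM in the HIF2aM3 animals, against 2.33, 10.4 and 2.81 CPM in the WT animals. The lowest HIF2aM3 animal stood 1.13 times above WT 2 in kappa variable segments and 1.16 times in heavy variable segments. Heavy constant genes summed to 113, 67.6 and 198 CPM in the HIF2aM3 animals, 17-56 being highest, against 10.4, 57.9 and 25.7 CPM in the WT animals. The 4 kappa joining segments, all below 1 CPM in sum, overlapped between the groups. Of these classes the 4 lambda genes had the widest gap between the groups, with 24.6, 8.94 and 9.57 CPM in the HIF2aM3 animals, against 1.42, 3.88 and 1.69 CPM in the WT animals, the lowest HIF2aM3 animal being 2.30 times above WT 2.

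Of the 84 members, 64 passed the filter on low counts and were tested. At an adjusted p under 0.05, 3 rose (Igkv16-104, Iglv1 and Ighv4-1) and 0 fell, that is 4.69% of those tested, where 3.75% of all genes tested were called (1.93% higher and 1.82% lower). At an unadjusted p under 0.05, 30 members were higher and 0 lower, where 12.2% of all genes were higher at that level. The count of called members was thus near the background, while the direction was one-sided. Of the 64 log2 fold changes 62 were above 0, where 9966 of the 19564 genes tested were above 0. The members were read in the same animals and tended to move together. For example, WT 2 was the highest WT animal in 55 of the 65 variable segments. Counts of members, here and below, are therefore not counts of independent observations. In 26 members all 3 HIF2aM3 animals were above all 3 WT animals, against 15.5% of all genes tested, and in 0 members were they all below.

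The median log2 fold change of the 64 members was 1.63, beside 0.00486 for all genes tested, and it ranged over members up to 3.87 for Igkv12-38. A segment that passed the filter only through the group where it was high had to differ, so the fit was repeated with only the rule of at least 10 reads. Over all 84 members the median was then 1.59, with 81 above 0 and 3 called. In that fit 757 of 22563 genes were called, and the median of all genes was 0.0061. A segment could still reach 10 reads through the HIF2aM3 group alone, so this bias was not fully removed. Fold changes of at least 1 on the log2 scale were present in 51 of the 64, where 2.29% of all genes reached that size. In the authors' deposited table, 18 of the 84 members had a q-value under 0.05 and all 18 were higher, beside 2015 higher and 1430 lower genes of 27412.

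**Figure D2:**
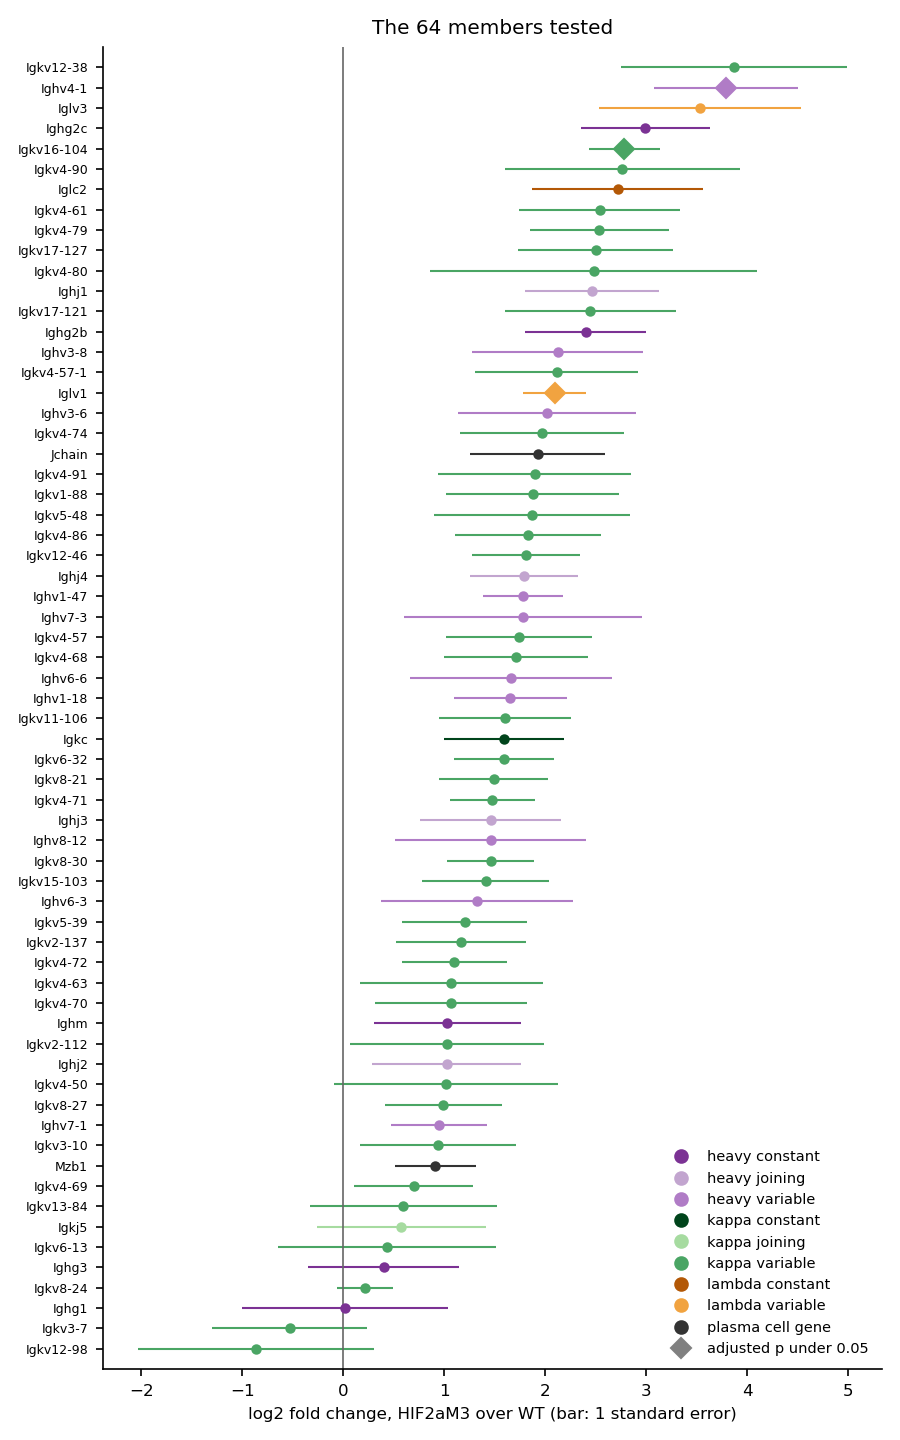
Log2 fold change of HIF2aM3 over WT (horizontal axis, bars 1 standard error) for each of the 64 members tested, by edgeR's fit; colours give the class and diamonds mark the 3 members past an adjusted p of 0.05. All but Igkv12-98 and Igkv3-7 lie above 0, and most bars are wide.

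Igkc, the constant gene of every kappa light chain, carried the most reads of any member (86196). It had 577, 291 and 314 CPM in 17-51, 17-53 and 17-56, against 90.2, 251 and 50.6 CPM in WT 1, WT 2 and WT 3. All 3 HIF2aM3 animals were above all WT animals, 17-51 highest and WT 3 lowest, with WT 2 near 17-53. The log2 fold change was 1.59 ± 0.60 (SE) and did not pass the test (edgeR, adjusted p = 0.166).

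Iglc2, a lambda constant gene, had 11.2, 2.65 and 2.13 CPM in the HIF2aM3 animals, against 0.475, 1.499 and 0.326 CPM in the WT animals. Animal 17-51 stood far above all others, and the groups did not overlap. Its log2 fold change of 2.72 ± 0.84 did not pass (edgeR, adjusted p = 0.118), though DESeq2 called it (adjusted p = 0.0378). Iglc2 made up 1.90% of the Igkc and Iglc2 reads in 17-51 (exact 95% interval 1.71 to 2.10), 0.903% in 17-53 and 0.672% in 17-56, against 0.524% in WT 1, 0.594% in WT 2 and 0.639% in WT 3. These intervals, and all others here, cover counting error only. The share of 17-51 lay outside the intervals of the 5 other animals, in kidney 2 (2.29%) as in kidney 1 (1.85%), whereas that of 17-56 did not differ from the WT animals beyond counting error. Iglc2 shares 7.7% of its 50-base stretches with Iglc3 and overlaps an exon of Iglj2.

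Among the heavy constant genes, 5 were tested and 0 called by edgeR (2 at an unadjusted p under 0.05, against 24.9% of all genes). DESeq2 called Ighg2c (adjusted p = 0.00361) and Ighg2b (adjusted p = 0.00902). Ighg2c, which encodes the IgG2c chain of C57BL/6 mice, had 58.6, 31.2 and 87.8 CPM in 17-51, 17-53 and 17-56, against 2.79, 14.2 and 4.95 CPM in WT 1, WT 2 and WT 3. The groups did not overlap, and the log2 fold change of 2.99 ± 0.64 stood just outside the threshold (edgeR, adjusted p = 0.0570). Ighg2b, the IgG2b chain, had 33.2, 12.7 and 51.8 CPM in HIF2aM3 animals, against 3.62, 10.1 and 4.46 CPM in WT animals, a log2 fold change of 2.40 ± 0.60 (edgeR, adjusted p = 0.0757).

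Ighm, the IgM chain of naive B cells and of early plasma cells, had 17.6, 22.6 and 54.9 CPM in HIF2aM3 animals, against 3.24, 27.4 and 15.8 CPM in WT animals. WT 2 was above both 17-51 and 17-53, so the groups overlapped (log2 fold change 1.03 ± 0.73, edgeR, adjusted p = 0.425). Ighg1, the IgG1 chain, had 3.32, 0.861 and 2.65 CPM in HIF2aM3 animals, against 0.693, 5.46 and 0.310 CPM in WT animals, and WT 2 was the highest of all (log2 fold change 0.01 ± 1.02, edgeR, adjusted p = 0.997). Ighg3, the IgG3 chain, was at 0.268 to 0.554 CPM in HIF2aM3 animals and 0.0396 to 0.585 CPM in WT animals (log2 fold change 0.40 ± 0.75, edgeR, adjusted p = 0.781). Ighe, the IgE chain, had 11 reads in all HIF2aM3 libraries and 7 in all WT libraries, all 7 in WT 2, and was not tested.

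The make-up of the reads of the 6 heavy constant genes, which leave out Igha and Ighd, differed between animals. Ighg2c held 51.7% of them in 17-51, 46.1% in 17-53 and 44.4% in 17-56, against 26.9% in WT 1, 24.6% in WT 2 and 19.3% in WT 3. Ighm held 15.5%, 33.4% and 27.8% in the same HIF2aM3 animals, against 31.2%, 47.3% and 61.5% in the WT animals. Ighg1 held 2.93%, 1.27% and 1.34% in the HIF2aM3 animals, against 6.67%, 9.42% and 1.21% in the WT animals. The Ighg2c share was thus higher in each HIF2aM3 animal than in each WT animal, while the Ighm and Ighg1 shares overlapped. These animal shares pool the reads of both kidneys, which differed widely in Ighg2c, so the kidney with more reads weighs more. In 17-51 they rest on 3532 reads of kidney 1 (Ighg2c 53.3%) and 152 reads of kidney 2 (16.4%). Kidney 1 of 17-53 had an Ighg2c share of 24.7%, within the WT range of 18.8% to 27.2% over libraries.

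The kidneys of each HIF2aM3 animal differed in Ighg2c by more than 2 times, while Igkc and Jchain differed by at most 1.35 times between kidneys in any animal. In 17-51, Ighg2c had 5.92 CPM in kidney 2 and 66.6 CPM in kidney 1 (25 and 1881 reads), a ratio of kidney 2 to kidney 1 of 0.0889 (exact 95% interval 0.0574 to 0.132). In 17-53 the order was the opposite, with 55.2 CPM in kidney 2 and 8.46 CPM in kidney 1 (2304 and 373 reads), a ratio of 6.52 (5.84 to 7.29). In 17-56 kidney 2 had 134 CPM and kidney 1 had 52.0 CPM, a ratio of 2.57 (2.42 to 2.72).

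The WT animals had Ighg2c ratios of 1.27, 0.793 and 1.45, and whether the size of the difference between kidneys depends on genotype was not tested. Igkc had ratios of 0.839, 1.14 and 1.35 in HIF2aM3 animals, against 0.984, 1.11 and 1.16 in WT animals. Jchain had ratios of 1.00, 0.952 and 1.18 in HIF2aM3 animals, against 1.08, 1.18 and 1.18 in WT animals. Taken one library at a time, the lowest Ighg2c values of HIF2aM3 libraries (5.92 and 8.46 CPM) lay below those of both WT 2 libraries (12.4 and 15.7 CPM), although the animal sums did not overlap. The Ighg2c share of heavy constant reads ran from 16.4% to 53.7% over HIF2aM3 libraries and from 18.8% to 27.2% over WT libraries.

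**Figure D3:**
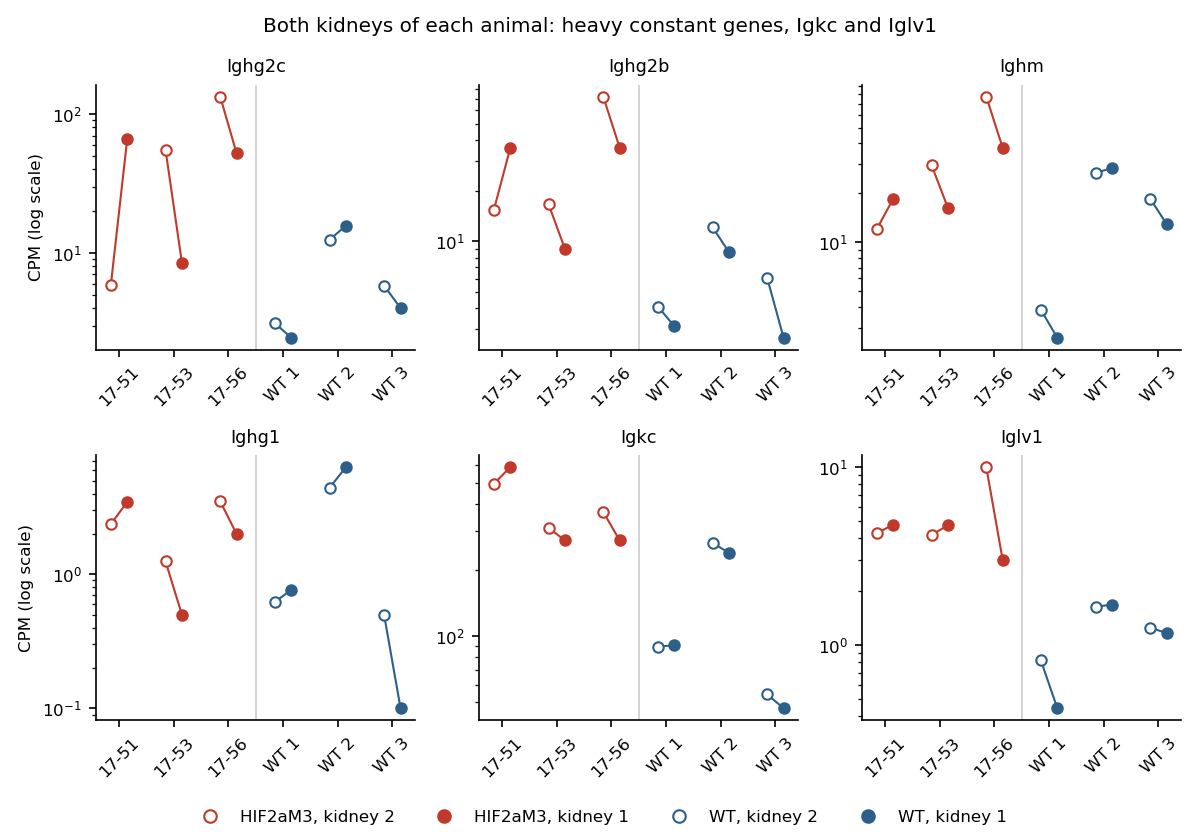
CPM (log axis) of 6 genes in both kidneys of each animal; open points are kidney 2 and filled points kidney 1, with HIF2aM3 animals in red on the left and WT animals in blue on the right. The Ighg2c lines of 17-51 and 17-53 are steep and run in opposite directions, from ratios of 0.0889 and 6.52, while the Igkc lines are nearly flat.

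Across the 12 libraries, kidney 2 was compared with kidney 1 with the animal as a block. This tests a shift to the same side in all animals, so differences of opposite sign cancel. Of the 68 members that passed the filter there, 0 were called by edgeR (7 at an unadjusted p under 0.05), where 0.0893% of all 19034 genes were called and 8.45% had an unadjusted p under 0.05, and the smallest adjusted p was 0.415. Without 17-51, 1 member was called, and the share of all genes called in that fit was not examined. Single segments could differ as much as Ighg2c. Igkv17-121 had 1.18 CPM in kidney 2 and 7.72 CPM in kidney 1 of 17-51 (5 and 218 reads), a ratio of 0.153 (0.0493 to 0.363). Ighv3-8 had 3.78 CPM in kidney 2 and 0.158 CPM in kidney 1 of 17-56 (95 and 5 reads), a ratio of 23.9 (9.89 to 75.3). Ighv3-8, with the largest ratio in 17-56, was chosen after its values were seen.

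Jchain encodes the joining chain that links IgM and IgA units into polymers and is a marker of antibody-secreting cells. It had 258, 141 and 127 CPM in 17-51, 17-53 and 17-56, against 31.1, 92.3 and 14.2 CPM in WT 1, WT 2 and WT 3. The groups did not overlap, WT 2 lying closest (log2 fold change 1.93 ± 0.67, edgeR, adjusted p = 0.145). Mzb1, an endoplasmic reticulum protein that helps antibody assembly, had 4.34, 2.03 and 2.56 CPM in HIF2aM3 animals, against 1.504, 2.26 and 0.868 CPM in WT animals. WT 2 was above 17-53, and the log2 fold change of 0.91 ± 0.40 did not pass (edgeR, adjusted p = 0.217). Mzb1 shares 53.5% of its 50-base stretches with an overlapping gene of the same strand, so its values are uncertain. Tnfrsf17, the receptor BCMA that keeps plasma cells alive, had 0.246, 0.128 and 0.141 CPM in HIF2aM3 animals, against 0.0594, 0.225 and 0.0465 CPM in WT animals. Tnfrsf17 had 48 reads in all and did not pass the filter on low counts, so it was not tested, and the groups overlapped.

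Levels of different genes can be compared only per length, for which the deposited RPKM values (reads scaled to gene length and to library depth, above 0 also for genes with 0 reads) were averaged over both kidneys. Igkc averaged 1089 ± 381 RPKM in HIF2aM3 animals and 369 ± 311 RPKM in WT animals (SD, n = 3 each). Jchain averaged 72.7 ± 29.2 RPKM in HIF2aM3 animals and 19.1 ± 17.7 RPKM in WT animals. Ighg2c averaged 40.7 ± 26.3 RPKM in HIF2aM3 animals and 5.45 ± 4.63 RPKM in WT animals, and Ighm averaged 21.4 ± 15.3 RPKM in HIF2aM3 animals and 10.2 ± 8.19 RPKM in WT animals. Igkc was the highest of these genes in every animal, Jchain the next in all but 17-56 and WT 3, where Ighg2c (71.0 RPKM) and Ighm (10.03 RPKM) came second.

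Ratios between members within a library were steadier for Jchain than for the heavy chains. Jchain stood at 0.0552 to 0.0774 of the Igkc RPKM in the HIF2aM3 libraries and at 0.0406 to 0.0556 in the WT libraries. The 6 heavy constant genes summed to 0.0214 to 0.213 of the Igkc RPKM in the HIF2aM3 libraries and to 0.0287 to 0.149 in the WT libraries. These heavy chain sums leave out Igha and Ighd, and their part in the differences between libraries was not tested.

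Igkv16-104 was the called kappa segment. It had 2.25, 3.70 and 4.39 CPM in 17-51, 17-53 and 17-56, against 0.752, 0.465 and 0.326 CPM in WT 1, WT 2 and WT 3. Unlike in most members, WT 2 was not the highest WT animal, and the lowest HIF2aM3 animal was well above WT 1. The log2 fold change was 2.78 ± 0.35 (edgeR, adjusted p = 0.0190), higher in 3 of 3 HIF2aM3 animals.

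Iglv1, a lambda segment, had 4.68, 4.44 and 6.08 CPM in HIF2aM3 animals, against 0.633, 1.66 and 1.21 CPM in WT animals. The HIF2aM3 animals were close to each other and all above the WT animals (log2 fold change 2.09 ± 0.31, edgeR, adjusted p = 0.0265). Ighv4-1 had 1.45, 1.51 and 0.527 CPM in HIF2aM3 animals, against 0.0396, 0.180 and 0.0155 CPM in WT animals, the groups again not overlapping (log2 fold change 3.79 ± 0.71, edgeR, adjusted p = 0.0424). It had 207 reads in all HIF2aM3 libraries and 15 in all WT libraries. Leaving out 1 animal other than WT 2 left 11 to 196 genes called in all, against 733 with every animal, so few calls of any gene remain in such a fit. Igkv16-104 lost its call without 17-53, at a log2 fold change of 2.72 (edgeR, adjusted p = 0.0800). Iglv1 lost it without 17-51, 17-53, 17-56 or WT 3, at log2 fold changes of 1.94 to 2.19 (edgeR, adjusted p from 0.0654 to 0.0907). Ighv4-1 lost it without 17-51, 17-53, WT 1 or WT 3, at 3.28 to 3.63 (edgeR, adjusted p from 0.0911 to 0.137), and without kidney 2 of WT 1, at 3.81 (edgeR, adjusted p = 0.0584).

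Several of the other abundant variable segments were far higher in 1 HIF2aM3 animal than in the others. Igkv5-48 had 13.4, 1.80 and 2.64 CPM in 17-51, 17-53 and 17-56, against 0.336, 3.07 and 1.16 CPM in WT 1, WT 2 and WT 3. Ighv3-6 had 12.1, 1.34 and 3.64 CPM in HIF2aM3 animals, against 0.9497, 2.46 and 0.605 CPM in WT animals. Igkv4-91 had 1.32, 6.59 and 2.92 CPM in HIF2aM3 animals, against 0.158, 2.43 and 0.326 CPM in WT animals. In these 3 segments 1 HIF2aM3 animal was far above the rest, the groups overlapped, and none passed the test.

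Igkv15-103 had 5.26, 2.503 and 4.59 CPM in HIF2aM3 animals, against 2.06, 2.23 and 0.310 CPM in WT animals, a narrow separation (log2 fold change 1.41 ± 0.63, edgeR, adjusted p = 0.226). Igkv4-80 had 11.4, 0.326 and 0.703 CPM in HIF2aM3 animals, against 0.0396, 1.89 and 0.0930 CPM in WT animals. Iglv3 had 8.58, 1.32 and 1.25 CPM in HIF2aM3 animals, against 0.257, 0.540 and 0.109 CPM in WT animals. Igkv4-80 and Iglv3 were both highest by far in 17-51, and neither passed (edgeR, adjusted p = 0.386 and 0.0972). Igkv5-39 was at 1.93 to 2.80 CPM in HIF2aM3 animals and 0.186 to 1.70 CPM in WT animals, and Igkv17-121 at 0.838 to 6.86 CPM in HIF2aM3 animals and 0.480 to 0.558 CPM in WT animals, each with no overlap and neither called.

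Over all 65 variable segments, 17-51 had the highest level in 36, 17-53 in 11, 17-56 in 12 and WT 2 in 6. Within the WT group, WT 2 was highest in 55 of 65. WT 2 exceeded at least 1 HIF2aM3 animal in 40 segments, WT 1 in 5 and WT 3 in 4. Igkv12-98, the most negative member (log2 fold change -0.86 ± 1.17, edgeR, adjusted p = 0.688), was highest in WT 2: it had 0.738, 0.140 and 0.650 CPM in HIF2aM3 animals, against 0.158, 2.25 and 0.124 CPM in WT animals.

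The leading segments were often shared by the kidneys of an animal. Among kappa variable reads, Igkv4-80 (16.6%) and Igkv5-48 (11.4%) led in kidney 2 of 17-51, and Igkv5-48 (14.3%) and Igkv4-80 (11.3%) in its kidney 1. Igkv4-91 led in both kidneys of 17-53, with 13.2% in kidney 2 and 15.2% in kidney 1. Igkv15-103 (9.87%) led in kidney 2 of 17-56 and Igkv16-104 (11.8%) in its kidney 1. In WT 1, Igkv15-103 (15.3% in kidney 2 and 18.7% in kidney 1) and Igkv5-39 (14.1% and 13.8%) led, in WT 2 Igkv6-13 (7.82% and 7.75%), and in WT 3 Igkv5-48 (12.9% and 13.5%). The first segment was the same in both kidneys of 4 of the 6 animals.

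**Figure D4:**
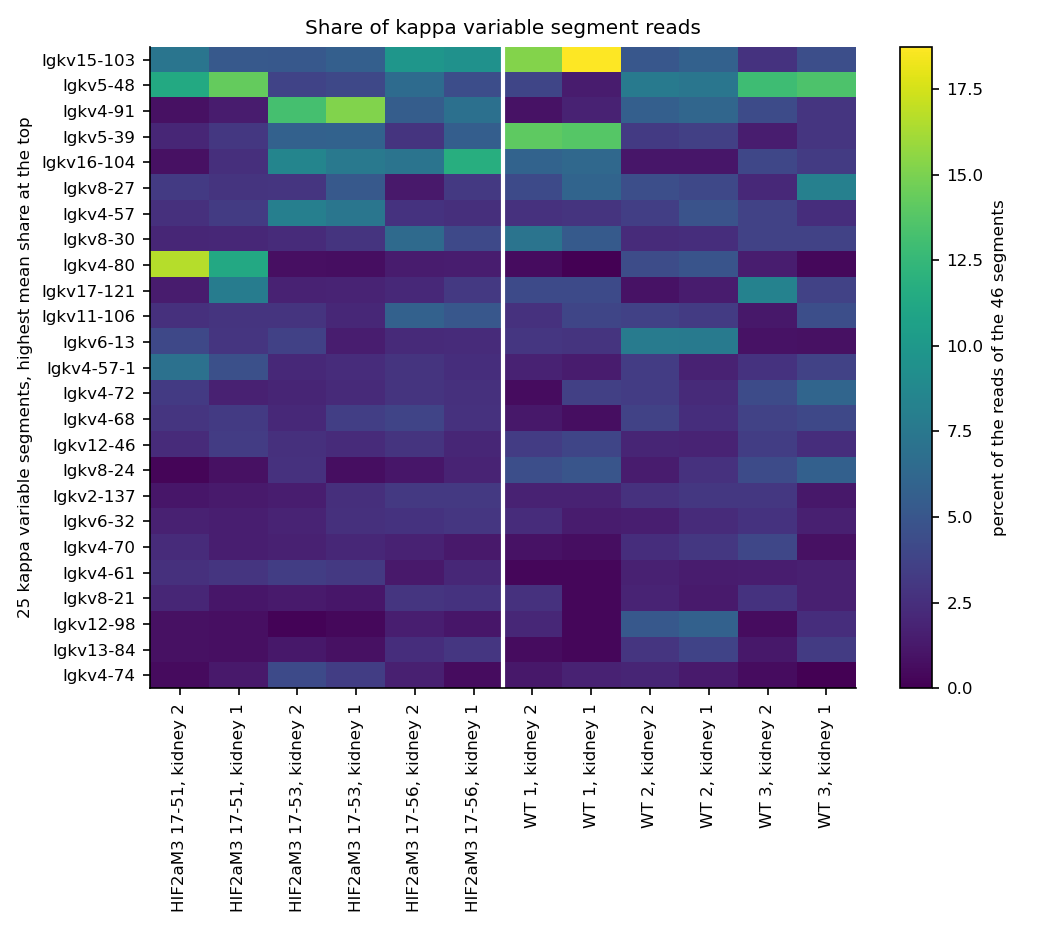
Share of kappa variable reads (colour, in percent of the reads of all 46 segments) for the 25 segments with the highest mean share, by library, HIF2aM3 libraries left of the white line and WT libraries right of it, kidney 2 before kidney 1. Columns of 1 animal look alike: Igkv4-91 is bright in both kidneys of 17-53 (13.2% and 15.2%) and Igkv15-103 in both of WT 1 (15.3% and 18.7%).

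As a description over the 65 variable segments, log2 shares (with 0.1% added) correlated at r = 0.76 to 0.94 (median 0.85) between the 6 pairs of kidneys of 1 animal. Between animals of 1 genotype the 24 pairs ran from 0.48 to 0.79 (median 0.65), and between genotypes the 36 pairs from 0.48 to 0.79 (median 0.66). The most similar library was the other kidney of the same animal for 10 of the 12 libraries, the exceptions being kidney 2 of WT 1 and kidney 1 of WT 3, both most similar to kidney 1 of 17-56. The pairs share libraries, and shallow libraries have noisier shares, so no p-value is given.

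All 4 heavy joining segments were tested and 0 were called by edgeR (2 at an unadjusted p under 0.05, against 24.9% of all genes). Ighj1 had 2.83, 1.23 and 0.562 CPM in 17-51, 17-53 and 17-56, against 0.198, 0.435 and 0.155 CPM in WT 1, WT 2 and WT 3 (log2 fold change 2.47 ± 0.66, edgeR, adjusted p = 0.0847). Ighj4 was at 0.640 to 0.954 CPM in HIF2aM3 animals and 0.0775 to 0.450 CPM in WT animals. Neither overlapped between the groups. Ighj1 held 61.3% of heavy joining reads in 17-51 (150 reads) and 31.1% in 17-56 (103 reads), where Ighj4 led with 48.5%. The kappa joining segments had few reads, only Igkj5 passing the filter (log2 fold change 0.58 ± 0.83, edgeR, adjusted p = 0.709).

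The 20 members that were not tested had 10 to 85 reads each, 518 in HIF2aM3 libraries and 218 in WT libraries together, from unequal depths. Their mean CPM was higher in HIF2aM3 animals for 19 of 20, and 5 did not overlap between the groups. The matching shares over other genes with few reads were not examined, so these counts have no background. A segment could also reach 10 reads through the HIF2aM3 group alone. Igkv5-37 had 52 reads, all in 17-53 and 17-56.

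Most B cell surface and signalling genes were also higher in HIF2aM3 animals. Of the 17 B cell markers, 16 were tested, 2 rose (12.5%) and 0 fell, where 1.93% of all genes were called higher. At an unadjusted p under 0.05 (edgeR) there were 13 of the 16, against 24.9% of all genes. Fcer2a, the low-affinity IgE receptor CD23 of mature B cells, had 0.646, 0.477 and 0.668 CPM in 17-51, 17-53 and 17-56, against 0.139, 0.180 and 0.124 CPM in WT 1, WT 2 and WT 3 (log2 fold change 1.97 ± 0.29, edgeR, adjusted p = 0.0230). Bank1, a scaffold of B cell receptor signalling, had 0.861, 0.594 and 0.650 CPM in HIF2aM3 animals, against 0.198, 0.270 and 0.186 CPM in WT animals (log2 fold change 1.64 ± 0.27, edgeR, adjusted p = 0.0288). In both genes WT 2 was the highest WT animal and stood far below every HIF2aM3 animal. Without any 1 animal other than WT 2, where few genes of any kind were called, both missed the threshold (edgeR, adjusted p from 0.0616 to 0.0969), with log2 fold changes of 1.85 to 2.13 for Fcer2a and 1.49 to 1.76 for Bank1. Bank1 also missed it without kidney 2 of WT 1, at 1.85 (edgeR, adjusted p = 0.0612). Without WT 2, 7 of the B cell markers rose, where 1549 of 19679 genes were called in either direction.

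In 12 of the 16 tested B cell markers all HIF2aM3 animals were above all WT animals, against 15.5% of all genes, in 1 (Cd72) they were all below, against 16.5% of all genes, and the median log2 fold change was 1.29. Cd72, Cr2 and Blnk stood apart with log2 fold changes from -0.09 to 0.10, and Cd72 and Blnk were at higher levels than the other markers (35.6 to 40.4 CPM and 9.35 to 10.4 CPM over all animals). All 17 markers summed to 60.4, 58.3 and 62.6 CPM in HIF2aM3 animals, against 53.8, 58.4 and 55.9 CPM in WT animals, WT 2 lying above 17-53. Without Cd72, Cr2 and Blnk, left out after their values were seen, the 14 other markers summed to 12.7, 9.48 and 12.1 CPM in HIF2aM3 animals, against 2.55, 6.62 and 3.97 CPM in WT animals. The sums of these 14 did not overlap, and WT 2 was the highest WT animal. No B cell marker had 0 reads over all animals.

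Of 10 genes of plasma cell identity, 1 rose and 0 fell, a count too small to set against the 1.93% of all genes called higher. Prdm1, which encodes Blimp-1, the transcription factor that drives plasma cell differentiation, had 8.70, 7.46 and 7.15 CPM in HIF2aM3 animals, against 2.77, 4.47 and 3.07 CPM in WT animals (log2 fold change 1.17 ± 0.18, edgeR, adjusted p = 0.0273). The groups did not overlap, and the log2 fold change was 1.03 to 1.22 without any 1 animal other than WT 2 (edgeR, adjusted p from 0.0624 to 0.101) and 1.12 without kidney 1 of WT 2 (edgeR, adjusted p = 0.0504). Irf4, chosen after its values were seen, a partner of Blimp-1 in that step, had 3.57, 2.91 and 4.09 CPM in HIF2aM3 animals, against 0.772, 2.11 and 1.02 CPM in WT animals, and did not pass (edgeR, adjusted p = 0.0727). Sdc1, the surface marker CD138, was at 9.94 to 10.8 CPM in HIF2aM3 animals and 9.14 to 10.3 CPM in WT animals. The list's median log2 fold change was 0.58, with 7 of the 10 genes above 0 and 3 below, the lowest at -0.41. In 3 genes all HIF2aM3 animals were above all WT animals, against 15.5% of all genes. In 1 gene they were all below, against 16.5% of all genes. Prdm1 and Sdc1 are also made by cells other than plasma cells, and which cells the reads came from was not tested.

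**Figure D5:**
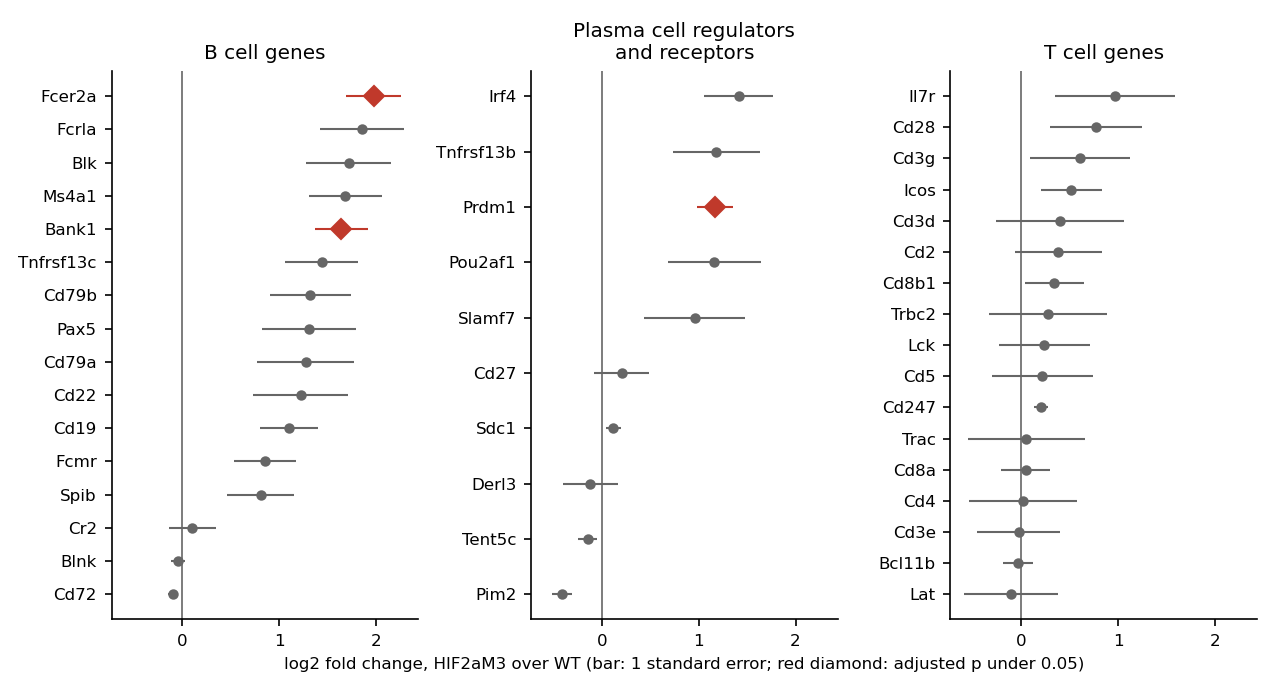
Log2 fold change of HIF2aM3 over WT (horizontal axis, bars 1 standard error, edgeR) for the tested B cell, plasma cell and T cell genes, each row a gene; red diamonds mark adjusted p under 0.05. Fcer2a, Bank1 and Prdm1 carry diamonds, while the T cell genes have a median of 0.24.

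The other lists had lower median log2 fold changes, from -0.66 for erythrocyte genes to 0.29 for homing and survival genes. Of 12 secretory pathway genes, 0 rose and 2 fell, where 1.93% of all genes were called higher and 1.82% lower. Other secretory cells share these genes, and which cells their reads came from was not tested. Creld2, an endoplasmic reticulum stress protein, had 17.9, 18.8 and 16.7 CPM in HIF2aM3 animals, against 32.7, 33.3 and 31.2 CPM in WT animals (log2 fold change -0.86 ± 0.06, edgeR, adjusted p = 0.00459). Hspa5, the chaperone BiP, was at 374 to 451 CPM in HIF2aM3 animals and 559 to 627 CPM in WT animals (-0.51 ± 0.09, edgeR, adjusted p = 0.0295). Creld2 kept its call without any 1 animal (edgeR, adjusted p from 0.00542 to 0.0275), whereas Hspa5 missed the threshold without any 1 animal other than WT 2, at log2 fold changes of -0.58 to -0.44 (edgeR, adjusted p from 0.0644 to 0.121). Of 10 genes that carry or bind antibodies 0 were called by edgeR (1 at an unadjusted p under 0.05, against 24.9% of all genes) and 1 was lower by DESeq2. Fcgrt, the neonatal Fc receptor, had the smallest p, with 196 to 215 CPM in HIF2aM3 animals and 228 to 278 CPM in WT animals (log2 fold change -0.29 ± 0.08, edgeR, adjusted p = 0.0884). Of 16 tested homing and survival genes 0 were called by edgeR or DESeq2, 3 having an unadjusted p under 0.05, against 24.9% of all genes. Tgfb1, a cytokine that acts in class switching, had the smallest p, at 17.0 to 17.1 CPM in HIF2aM3 animals and 11.4 to 16.5 CPM in WT animals (edgeR, adjusted p = 0.166).

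Markers of other leukocytes were examined alongside. Of 17 tested T cell genes 0 were called by edgeR or DESeq2 (1 at an unadjusted p under 0.05, against 24.9% of all genes), with a median log2 fold change of 0.24. The 18 genes summed to 38.8 to 39.8 CPM in HIF2aM3 animals and 29.5 to 42.2 CPM in WT animals, WT 2 the highest of all. Cd247, a T cell receptor chain, had the smallest p (log2 fold change 0.20 ± 0.07, edgeR, adjusted p = 0.147). Cd247 (8.78 to 14.4 CPM over libraries) and Bcl11b (9.72 to 15.1 CPM) stood far above the other T cell genes. No T cell sum without them was made. Of 11 macrophage genes 1 rose, a count too small to set against the 1.93% of all genes called higher. All 11 had log2 fold changes above 0, with a median of 0.29, where 9966 of the 19564 genes tested were above 0. The called gene was Csf1r, the receptor of the macrophage growth factor. Csf1r had 58.7, 61.8 and 66.0 CPM in HIF2aM3 animals, against 35.6, 41.3 and 47.5 CPM in WT animals (log2 fold change 0.58 ± 0.10, edgeR, adjusted p = 0.0349). The macrophage genes summed to 164 to 222 CPM in HIF2aM3 animals and 99.5 to 197 CPM in WT animals. The macrophage call was lost without 17-51, 17-53, 17-56 or WT 1. None of the T cell or macrophage markers was at 0 over all animals, and the part of these cells in the antibody RNA was not tested.

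Erythrocyte genes give a measure of blood left in the slice. The 7 genes summed to 87.7, 144 and 125 CPM in 17-51, 17-53 and 17-56, against 122, 151 and 194 CPM in WT 1, WT 2 and WT 3. The sum includes Slc4a1 (46.1 to 67.6 CPM over all animals), which intercalated cells of the collecting duct also express. The part of residual blood in the antibody RNA was not tested. Of the 4 genes tested 0 were called by edgeR or DESeq2 (1 at an unadjusted p under 0.05, against 24.9% of all genes). Hbb-bt, a beta globin, had the smallest p (log2 fold change -0.82 ± 0.34, edgeR, adjusted p = 0.200). Of the 7 proximal tubule genes 0 rose and 1 fell, a count too small to set against the 1.82% of all genes called lower. That gene was Slc22a6, the organic anion transporter OAT1, at 1145 to 1221 CPM in HIF2aM3 animals and 1406 to 1821 CPM in WT animals (log2 fold change -0.50 ± 0.11, edgeR, adjusted p = 0.0483). Its call was lost without any 1 animal other than WT 2.

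Of the 6 animals, WT 2 was the one whose omission moved the count of called members most. Without that animal 21 of 65 members tested rose and 0 fell, where 1549 of 19679 genes were called, and the median log2 fold change of the members was 2.65. Igkc (2.48, edgeR, adjusted p = 0.0482) and Ighg2c (3.90, edgeR, adjusted p = 0.0345) were then called. Without any 1 of the other 5 animals 0 to 2 members were called. WT 2 carries the same label as WT 1 and WT 3, and the labels name no batch or date that sets it apart.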

How the data were processed

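Both kidneys of 6 mice gave 12 libraries, prepared with a TruSeq RNA kit per the labels' protocols. The genome build was mm9, per the submitters' processing notes. Which aligner, counter, annotation and strand setting served is not given in the sources used. Deposited as 1 table were raw read counts per gene, and by the authors RPKM and log2 RPKM values per library and the authors' fold changes (ratios and log2), t scores, p-values and q-values, per the file headers. The p-values and q-values are of a t-test and of a Fisher exact test, and only the q-values of the t-test were counted. RPKM values deposited by the authors are above 0 for genes with 0 reads. Symbols came from GENCODE M21, which matched 24630 of 27412 IDs; the other 2782 (1.18% of counts) were not used. Sequences are GENCODE M21 transcripts on GRCm38, so no coordinates are given.

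Per animal, the counts of its kidneys were added up, so the deeper library of an animal weighs more in its values. Then edgeR 4.0.16 (R 4.3.3) was run on the sums: filterByExpr, TMM, quasi-likelihood test, Benjamini-Hochberg over all genes, threshold 0.05. CPM values use TMM library sizes. The test was checked on simulated counts with 1 spread for all genes and changes only in genes with many reads. That check does not cover genes as variable or as low as many members. Nothing in the labels gives dates or batches, and animals of a group may share litters, so p-values measure the spread between these animals. Kidneys were compared with the animal as a block. Exact 95% binomial intervals were used. Alternatives were DESeq2 1.42.0, limma 3.58.1 on RPKM, other scalings and filters, single kidneys, and leaving out each animal. The members and the 9 gene lists were chosen with earlier results of these data known. Genes named were all constant genes, Jchain, Mzb1, Tnfrsf17, the 10 variable segments with the highest mean CPM, called members, and, per list, called genes or that with the smallest p. Igkv12-38, Igkv12-98, Igkv3-7, Igkv5-37, Ighv3-8, Irf4, Sdc1, Cd72, Cr2, Blnk, Bcl11b, the joining segments and segments leading in an animal were named after seeing values.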

Additional observations from a re-analysis of the deposited data

Results flagged for a closer look

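Single libraries stood apart from the 5 others of their genotype in 4 of the 78 sets of values examined (named members, class sums and called list genes), and chance alone would set apart about 1 in 20. The 2 kidneys of an animal are not independent. Iglv1 was at 9.99 CPM in kidney 2 of 17-56, against 3.01 to 4.74 CPM in the other HIF2aM3 libraries. Igkv17-121 was at 7.72 CPM in kidney 1 of 17-51, against 0.814 to 1.24 CPM in the other HIF2aM3 libraries. The heavy constant genes summed to 287 CPM in kidney 2 of 17-56, against 34.3 to 128 CPM in the other HIF2aM3 libraries. Ighg3 was at 1.20 CPM in kidney 2 of WT 2, against 0.0390 to 0.234 CPM in the other WT libraries. Leaving out kidney 2 of 17-56 gave a log2 fold change of 1.76 for Iglv1 (edgeR, adjusted p = 0.0390), so that call did not rest on this library.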

How the results depend on the processing

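The count of 3 called members became 26 of 49 with the 12 libraries as replicates, which counts kidneys of an animal as independent (4830 of 18164 genes called in all), 20 with DESeq2 (2058 genes called in all) and 0 with limma on RPKM plus 0.1 and plus 5 (140 and 67 genes called in all); the cause was not tested. It stayed at 2 to 4 under the other scalings, filters and single kidneys. Leaving out 1 animal gave 0 to 21, and leaving out 1 library, added after seeing the data, 2 to 5. The median log2 fold change of 1.63 was 0.45 with limma on RPKM plus 5, which shrinks low genes, and 1.24 to 2.65 without 1 animal. The log2 ratio of summed levels (1.74) ran from 1.39 to 2.65 without 1 animal. Members called for a shift of kidney 2 against kidney 1 common to the animals numbered 0, and 1 without 17-51, where the share of all genes called was not examined. The Ighg1 log2 fold change, near 0, changed sign in 14 settings: it was -0.056 with the libraries as replicates, -0.38 in kidney 1 alone, and -0.51 to 2.16 without 1 animal or library. Over the same leave-outs Ighg3 ran from -0.11 (without kidney 1 of WT 2) to 1.77, and Igkv4-80 from -0.47 (without 17-51) to 5.75. Of the other tested constant genes, Jchain, Mzb1 and the other abundant or called variable segments, 0 changed sign; further members named in the text were not recomputed. The B cell list had 9 calls with libraries as replicates, 7 with DESeq2, 7 without WT 2 and 0 without any 1 of the other animals. No paired analysis was possible because the animals of the 2 groups share no replicate numbers.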
